A study of Mus musculus with 9 samples.

Results

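Transcripts of bone marrow derived macrophages treated with JHU083 were compared with those of Control macrophages. The libraries were chosen by treatment alone: the 3 JHU083 libraries against the 3 Control libraries, over every gene with a mean FPKM (fragments scaled to transcript length and library depth) of at least 1 over the 9 libraries of the series. This gave 11798 of the 28998 genes in the table, in 6 of 9 libraries. All cells were wild-type macrophages grown from the marrow of C57 mice for 7 days in GM-CSF, a growth factor that drives monocytes to become macrophages. The JHU083 cells then had the drug for 36 h. The dose, what the Control cells received and how long they were kept are not in the labels, so culture time and drug cannot be told apart. WGFT17, the remaining group of 3 libraries, entered the fit to share the estimate of spread. Ages, sexes and whether replicates came from separate animals or dishes are not stated either, so the spread behind each p-value is that of these libraries and may be technical.

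JHU083 is a prodrug that releases the glutamine antagonist DON, a compound that resembles glutamine and blocks enzymes that use it. Macrophages draw on glutamine for nucleotides, amino sugars, other amino acids and fuel for the tricarboxylic acid cycle, and their state of activation changes with its supply. A shortage of amino acids activates the kinase GCN2, which raises the transcription factor ATF4 and with it genes of amino acid synthesis, uptake and tRNA charging. Interferon response genes, immediate early genes and lipid synthesis genes are each controlled by factors of their own, the STAT and IRF family, the serum response factor and the SREBP family.

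Libraries kept strand, were made from poly(A) RNA and were read from both ends for 150 bases. The 6 libraries held 56624220 to 65950611 deposited estimated counts. In each of them more genes had exactly 4 counts (868 to 911) than 5 (290 to 333), so a count may not be 1 read pair and the number of read pairs is not known. The 10 macrophage markers were all above 1 FPKM, and their sums were 17689 to 19068 CPM (counts scaled to the library total) in Control and 18663 to 19924 in JHU083. Of 10 dendritic cell markers 8 were under 1 FPKM. Fibroblast and liver transcripts were present in every library, and their sums were lower in JHU083. The sums of heart and photoreceptor transcripts differed among the JHU083 libraries. Those sums stand beside the results they touch.

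JHU083 replicate 3 stood apart from replicates 1 and 2. The median absolute log2 difference over the tested genes was 0.092 between replicates 1 and 2, but 0.178 and 0.171 between replicate 3 and each of them. Control libraries differed from each other by 0.09 to 0.102, and Control from JHU083 libraries by 0.161 to 0.226. In replicate 3, 300 genes were at least 1.5-fold above both other JHU083 libraries and 236 at least 1.5-fold below. The same counts were 89 and 64 for replicate 1, 39 and 207 for replicate 2, and 39 to 46 above and 41 to 66 below for the Control libraries. Counts for the groups of genes below are therefore given with all 3 libraries and without replicate 3.

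By edgeR's quasi-likelihood test with Benjamini-Hochberg adjustment, 2831 of 11798 genes (24.0%) were called at an adjusted p under 0.05. Of these 1351 were higher (11.5%) and 1480 lower (12.5%) in JHU083. These shares over all tested genes are the background for each count of a gene group below. All adjusted p-values below come from this test, and called, rose and fell mean a gene that passed it. Changes were small, with a median of 0.36 on the log2 scale among called genes. Of the called genes, 150 rises and 404 falls were at least 1.5-fold. Without replicate 3, 3731 genes were called (31.6%), 1855 higher (15.7%) and 1876 lower (15.9%). Of the genes called with all libraries, 1171 higher and 1384 lower genes were called again in the same direction without it, 276 were not, and 0 were called the opposite way. Leaving out Control replicate 2 gave 1534 calls and Control replicate 3 gave 1568. The share of calls that were higher was 47.7%, against 58.7% with library totals as the only scaling and 71.6% in a limma fit of log2 FPKM with a pseudocount of 1. The FPKM themselves lay higher in all 3 JHU083 libraries than in any Control library for 3695 genes (31.3%) and lower for 1460 (12.4%).

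Replicate 3 lay on the same side of the Controls as replicates 1 and 2 for most of the genes those libraries called. Of the 1855 genes called higher from replicates 1 and 2 alone, replicate 3 was above all 3 Controls for 1266, within their range for 281 and below all of them for 308. Of the 1876 called lower, it was below all Controls for 1553, within their range for 233 and above them for 90. The median differences from the Control mean were 0.29, 0.31 and 0.21 (log2 CPM, replicates 1 to 3) for the higher set and -0.39, -0.43 and -0.29 for the lower set. All 3 libraries were measured from the Control libraries that also entered the choice of these genes, so the values of replicate 3 are not independent of that choice and all are a description with no test. The genes where replicate 3 differed most are described last.

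The change moved with transcript length. Across 11791 genes with an annotated transcript, it followed length with a positive rank correlation (Spearman's rho 0.384, a description across genes, which are not independent replicates). Each JHU083 library showed it, with rho of 0.301, 0.355 and 0.359. Differences from the Control mean also followed length in the Control libraries themselves, with rho of 0.284, -0.1 and -0.202. In the shortest of 5 equal bins of transcripts (53 to 1596 bases), 52 genes were called higher and 571 lower; in the longest bin (5013 to 40378 bases), 644 were higher and 147 lower. With each library's trend on length removed by a loess curve, 1073 genes were higher and 1017 lower, and the shortest bin held 179 and 178. Removing such a trend also removes any change of the cells that goes with length. The part of length in each result was not tested, and the values with it removed are printed beside the lists of short or long genes.

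**Figure D1:**
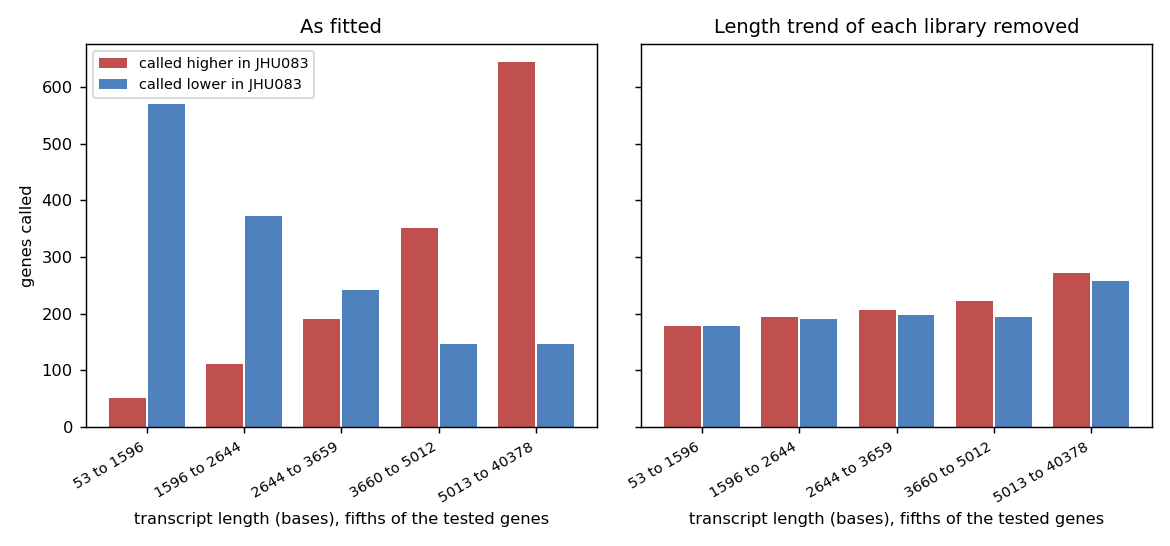
Number of genes called higher (red) or lower (blue) in JHU083 against Control in 5 equal bins of the tested genes by transcript length (x axis, bases), as fitted (left) and with each library's length trend removed (right). The short transcripts were mostly lower and the long ones mostly higher on the left (52 and 571 in the shortest bin, 644 and 147 in the longest), and the bars are nearly level on the right.

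Genes that react within minutes to outside signals, and the feedback regulators they include, were mostly lower where they were called. Of 39 such genes tested, 14 fell (35.9%, against 12.5% of all genes), 1 rose and 24 were not called. The median change was -0.12, against 0.00 over all tested genes, and the library medians were -0.06, -0.05 and -0.38. Without replicate 3, 13 fell and 2 rose, at a median of -0.05. The largest fall was that of Zfp36, which encodes tristetraprolin, a protein that binds and destabilises mRNAs of cytokines (chromosome 7, 28376784 to 28380253, GRCm38 coordinates as for all positions here). It had 45.7, 45.6 and 43.6 FPKM in Control replicates 1 to 3, and 23.2, 25.2 and 24.3 in JHU083. The groups are far apart and the libraries within each nearly equal. Zfp36 was 1.98-fold lower (log2 -0.99, SE 0.06, adjusted p = 7.9e-06). Dusp5, a phosphatase that switches off the kinase ERK, had 4.81, 4.87 and 4.75 FPKM in Control and 3.14, 3.13 and 2.44 in JHU083 (log2 -0.82, adjusted p = 0.00182). Ier3, an early survival gene, fell by 0.74 (adjusted p = 0.000102) and the antiproliferative gene Btg2 by 0.70 (adjusted p = 0.000785). Fos, a subunit of the AP-1 transcription factor, had 37.0, 31.8 and 34.3 FPKM in Control and 23.9, 25.8 and 19.9 in JHU083, with no overlap (log2 -0.66, adjusted p = 0.00164). Its partner Jun was at 41.5, 39.4 and 38.4 against 44.2, 42.8 and 36.5 FPKM, overlapping groups (adjusted p = 0.673).

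The Zfp36 promoter is shown because this gene had the smallest adjusted p of the list. The window runs 250 bases before to 50 after the transcript start (RefSeq, GRCm38.p6, chr7:28379179-28379478, minus strand, printed 5′ to 3′ on the gene's strand). Capitals mark its 1 match to the CArG box, the sequence that serum response factor binds, which begins 58 bases before the start.
Zfp36: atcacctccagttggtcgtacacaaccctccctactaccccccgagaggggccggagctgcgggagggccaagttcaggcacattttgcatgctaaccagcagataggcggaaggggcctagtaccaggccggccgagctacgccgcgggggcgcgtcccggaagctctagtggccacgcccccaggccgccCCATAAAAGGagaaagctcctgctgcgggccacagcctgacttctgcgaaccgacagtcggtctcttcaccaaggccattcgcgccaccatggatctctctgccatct
A CArG box was found in 1.57% of 27025 such windows, in 1.39% of the 8691 windows of tested genes and in 2 of the 30 matched genes of this list. The cyclic AMP response element TGACGTCA was in 1.88% of all windows, 3.24% of those of tested genes and 2 of 30 genes (either strand). For each motif both genes with a match were among the 11 matched genes that fell. These are matches of letters and show no binding.

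Among inflammatory mediators and their receptors, some genes fell and others rose. Ptgs2, which encodes cyclooxygenase-2, the inducible enzyme of prostaglandin synthesis, had 6.54, 5.58 and 6.79 FPKM in Control and 3.25, 2.74 and 3.17 in JHU083. All 3 treated libraries lay below all Controls, a log2 change of -1.14 (SE 0.09, adjusted p = 0.000119). Hpgds, which makes prostaglandin D2, went the other way: 18.9, 18.2 and 14.8 FPKM in Control and 26.6, 25.7 and 28.7 in JHU083 (log2 0.55, adjusted p = 0.00166). Il1rl1, the receptor of the alarm cytokine IL-33, had 7.84, 7.50 and 6.91 FPKM against 3.29, 2.50 and 3.97, with replicate 3 the nearest to Control and still below every Control library. It was 2.43-fold lower (log2 -1.28, SE 0.16, adjusted p = 0.000785). Tnf, the gene of tumour necrosis factor, had 14.1, 12.2 and 13.04 FPKM in Control and 6.42, 6.05 and 9.21 in JHU083, so replicate 3 was again nearest to Control (log2 -0.95, and -1.17 without it). Tnfrsf12a, the receptor of the cytokine TWEAK, fell by 0.66 (adjusted p = 0.000153). Of 39 interleukins, members of the TNF family and their receptors, 8 fell (20.5%, against 12.5% of all genes). The rises were 3 (7.69%, against 11.5% of all genes), and 28 did not pass. The median was -0.01, between -0.06 and 0.08 under the other settings. Without replicate 3, 7 fell and 5 rose, and without Control replicate 1, 1 rose.

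Of 25 chemokines and their receptors, 5 fell (20%, against 12.5% of all genes) and 1 rose. Without replicate 3, 9 fell and 1 rose, and without Control replicate 1, 2 fell. Ccl5, which attracts T cells, had 4.59, 5.18 and 4.88 FPKM in Control and 1.58, 1.17 and 2.99 in JHU083 (log2 -1.44, adjusted p = 0.00653). Ccl2, the monocyte attractant, was level at 30.2, 32.8 and 28.6 against 29.3, 32.3 and 28.3 FPKM (log2 -0.12, adjusted p = 0.344).

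Receptors of microbes were higher where they were called, with 1 exception. Of 31 pattern receptors, caspases and inflammasome genes, 10 rose (32.3%, against 11.5% of all genes), 1 fell and 20 did not pass (median 0.11). Without replicate 3 the counts were 10 and 2, and without Control replicate 2 only 4 rose. Tlr4, the receptor of bacterial lipopolysaccharide, had 7.70, 7.18 and 6.91 FPKM in Control and 9.36, 10.4 and 12.1 in JHU083. Tlr8, which senses RNA, had 25.2, 22.7 and 25.1 FPKM against 31.2, 34.3 and 36.9. Replicate 3 was the highest for both. The log2 changes were 0.46 and 0.39 (adjusted p = 0.00955 and 0.00419). Nod1, a sensor of bacterial cell walls, rose by 0.40 (adjusted p = 0.0102), and Casp1, an inflammatory caspase, by 0.35 (adjusted p = 0.0148), a call that ended without Control replicate 2 (adjusted p = 0.0586) or JHU083 replicate 2 (0.0528). The exception was Cd14, the co-receptor of Tlr4, at 98.4, 101.11 and 96.5 FPKM against 84.9, 86.7 and 92.9 (log2 -0.26, adjusted p = 0.0253); its call ended on leaving out any Control replicate or JHU083 replicate 1 or 2 (log2 -0.23 to -0.27) and with length removed (log2 -0.12).

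Receptors for dying cells and modified lipids rose in part. Mertk, a kinase receptor that takes up apoptotic cells, had 27.0, 24.9 and 25.4 FPKM in Control and 35.7, 37.1 and 37.1 in JHU083, 1.33-fold higher with close replicates (log2 0.42, SE 0.05, adjusted p = 0.0007). Msr1, the class A scavenger receptor, had 29.1, 26.5 and 27.7 against 37.97, 41.5 and 44.0 FPKM (log2 0.47, adjusted p = 0.00212). Cd163, the haemoglobin scavenger receptor, was low, at 0.95, 0.83 and 0.91 against 1.39, 1.31 and 1.43 FPKM (log2 0.52, adjusted p = 0.00775). Of 21 genes of this kind, 4 rose (19%, against 11.5% of all genes), 0 fell and 17 did not pass (median 0.10). Without replicate 3 the counts were 6 and 1, and without Control replicate 1, 3 rose. With length removed 4 rose and 0 fell, at a median of 0.01. Axl, Mrc1 and Scarb1 were among those that did not pass, with log2 values of -0.02, -0.01 and -0.01. Lpl, the lipoprotein lipase that lipid-laden macrophages make in quantity, rose by 0.44 (adjusted p = 0.00319). Spp1, among the most abundant transcripts of these cells, was at 2048, 1918 and 2095 FPKM in Control and 2031, 2023 and 2118 in JHU083, with overlap (adjusted p = 0.376).

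Of 34 factors listed for the macrophage lineage, 5 rose (14.7%, against 11.5% of all genes), 0 fell and 29 did not pass. Without replicate 3, 11 rose, and without Control replicate 1, 2 rose. Among the 5 were Cebpg and Nr1h3, which are also counted as rises of the ATF4 target and sterol lists below. Zeb2, which keeps macrophage identity, had 10.3, 9.38 and 8.98 FPKM in Control and 12.7, 13.4 and 14.8 in JHU083 (log2 0.42, adjusted p = 0.00234). Spi1, which encodes PU.1, had 63.3, 63.5 and 70.9 FPKM against 79.4, 78.5 and 59.8. Replicates 1 and 2 were above and replicate 3 below every Control library (log2 0.04, adjusted p = 0.766; 0.16 and 0.0515 without replicate 3). Among markers of alternative activation, Chil3 (6.85, 8.03 and 7.42 against 1.76, 2.05 and 3.53 FPKM) and Arg1 (4.95, 4.25 and 3.71 against 2.55, 1.54 and 2.14) did not overlap and fell by 1.69 and 1.14 on the log2 scale (adjusted p = 0.00139 and 0.00979). Chil3 was named by a rule that requires no overlap. Cd200r1, an inhibitory receptor, rose by 0.37 (adjusted p = 0.00139). Of the 16 markers of this kind, 2 rose (12.5%, against 11.5% of all genes), 3 fell (18.8%, against 12.5%) and 11 did not pass (median -0.01). Without replicate 3 the counts were also 2 and 3.

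Interferon-stimulated genes were mostly higher where called. Of 61 tested, 25 rose (41%, against 11.5% of all genes), 1 fell and 35 were not called (median 0.21). Rises and falls were 25 and 5 without replicate 3, at least 19 rises with any other library left out (the fewest without Control replicate 3), and 27 and 0 with the length trend removed. The library medians were 0.17, 0.16 and 0.36, so replicate 3 was the highest. Parp14, an enzyme that attaches ADP-ribose, had 6.35, 5.24 and 5.75 FPKM in Control and 10.3, 10.02 and 11.1 in JHU083 (1.7-fold higher, log2 0.76, SE 0.08, adjusted p = 0.000346). Slfn9, of the Schlafen family, had 5.37, 4.48 and 4.16 against 8.02, 7.65 and 8.91 FPKM (log2 0.72, adjusted p = 0.00194). Samd9l, an antiviral factor, had 7.68, 6.60 and 6.44 against 11.1, 11.6 and 12.8 (log2 0.68, adjusted p = 0.001). In all 3 of these genes no JHU083 library overlapped a Control library, which held on the higher side for 31.3% of all tested genes. Parp14 and Slfn9 were named by a rule that requires no overlap.

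Parts of the pathway differed in their counts. Of the factors that carry the signal, Stat2 and Irf9 rose by 0.57 and 0.31 (adjusted p = 0.000785 and 0.00623). Oas2 and Oas3, which make the messenger that activates RNase L, rose by 0.54 and 0.49 (adjusted p = 0.00765 and 0.0111). Oas3 had 2.25, 2.29 and 2.57 FPKM in Control and 3.26, 3.19 and 4.2 in JHU083. Members chosen after their values were seen, to show the spread of the list, included some that were not called. Rsad2 (viperin) had 1.23, 1.05 and 1.15 against 1.33, 0.81 and 1.94 FPKM, and Ifit1, which binds foreign RNA, 1.07, 0.87 and 1.34 against 0.90, 0.95 and 1.94. In both genes replicate 3 was above every Control, and replicate 2 was below every Control for Rsad2 alone. Isg15, a ubiquitin-like protein, was at 6.23, 7.09 and 6.62 against 5.47, 4.73 and 6.83 FPKM (log2 -0.32, adjusted p = 0.172; -0.48 and 0.0342 without replicate 3). Others of the same kind were called: Ifit3 rose by 0.46 (adjusted p = 0.0241) and Ifih1, an RNA sensor, by 0.31 (adjusted p = 0.0492). The call of Ifit3 ended without Control replicate 1 or 3 or JHU083 replicate 1 (adjusted p = 0.0664 to 0.0767), and that of Ifih1 without Control replicate 2 or 3 or JHU083 replicate 2 or 3 (0.0907 to 0.166). Slfn8 and Slfn9, the Oas and Ifi20x genes and the guanylate-binding proteins have near relatives, so the split of reads among them is uncertain.

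The promoters of Oas3 and Slfn9 are shown because both genes rose and their windows hold the core of the element that interferon-activated factors bind. Both are on the minus strand and printed 5′ to 3′ on the gene's strand (RefSeq, GRCm38.p6, chr5:120777610-120777909 and chr11:82991781-82992080). Capitals mark the match to this core, 2 copies of GAAA with any 2 bases between them, which begins 75 bases before the Oas3 start on the same strand as the gene and 45 bases before the Slfn9 start on the opposite strand.
Oas3: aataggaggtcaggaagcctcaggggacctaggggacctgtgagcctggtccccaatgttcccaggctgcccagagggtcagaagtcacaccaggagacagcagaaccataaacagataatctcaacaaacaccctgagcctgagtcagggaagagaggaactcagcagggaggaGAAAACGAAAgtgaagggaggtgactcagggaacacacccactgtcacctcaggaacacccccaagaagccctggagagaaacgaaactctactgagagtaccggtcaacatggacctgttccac
Slfn9: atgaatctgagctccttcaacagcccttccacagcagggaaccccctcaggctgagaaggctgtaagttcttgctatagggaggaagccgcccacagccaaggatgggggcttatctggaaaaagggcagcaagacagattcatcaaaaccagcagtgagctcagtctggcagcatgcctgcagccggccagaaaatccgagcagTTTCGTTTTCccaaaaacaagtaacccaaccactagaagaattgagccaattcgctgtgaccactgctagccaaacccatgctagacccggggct
On either strand this core was in 3.49% of all 27025 windows and 3.16% of those of tested genes. It was in 26 of the 48 interferon-stimulated genes that matched a RefSeq window. It was in 11 of the 19 matched genes that rose and in 15 of the 29 that were not called, so windows with the core were about as common in both. No match overlapped a match of the other 5 motifs searched.

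The amino acid response moved down at most of its target genes, and its regulators moved in both directions. Of 34 ATF4 targets tested, 19 fell (55.9%, against 12.5% of all genes), 2 rose and 13 were not called. The median was -0.31, and the library medians were -0.29, -0.3 and -0.34. Falls and rises were 20 and 2 without replicate 3, and 19 and 4 with the length trend removed. Slc7a5, the light chain of the transporter that exchanges glutamine for leucine, had 25.8, 28.9 and 25.1 FPKM in Control and 18.3, 18.4 and 16.1 in JHU083 (1.61-fold lower, log2 -0.69, SE 0.08). Eif4ebp1, a brake on translation, had 21.7, 22.4 and 24.4 against 15.6, 13.6 and 16.03 FPKM (log2 -0.70, adjusted p = 0.000651). Asns, which makes asparagine from glutamine, had 26.6, 28.6 and 26.5 against 21.2, 20.4 and 23.8 (log2 -0.41, adjusted p = 0.0018). None of these 3 overlapped between groups, and 12.4% of all tested genes were lower without overlap. Among serine and proline enzymes, Psph, Pycr1, Aldh18a1, Phgdh and Psat1 fell by 0.58, 0.50, 0.45, 0.38 and 0.37. Atf5, a relative of ATF4, fell by 0.46 and Atf4 itself by 0.24 (adjusted p = 0.000573 and 0.00523), the latter not with length removed (log2 -0.08 with length and GC content removed).

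Atf3 and Cebpg were the 2 that rose. Atf3, a stress-induced factor that represses many inflammatory genes, had 45.3, 44.1 and 50.6 FPKM in Control and 64.0, 74.9 and 72.6 in JHU083 (1.41-fold higher, log2 0.50, SE 0.07, adjusted p = 0.00142). Cebpg, which pairs with ATF4 on DNA, had 5.81, 5.58 and 5.56 against 9.25, 8.64 and 7.43 FPKM (log2 0.48, adjusted p = 0.00222). Neither gene's groups overlapped, and 31.3% of all tested genes were higher without overlap. Ddit3, which encodes CHOP and is another pairing partner, had 9.70, 10.9 and 9.03 against 12.5, 11.5 and 11.7 FPKM, without overlap (log2 0.17, adjusted p = 0.0888).

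The promoters of Asns and Atf3 are shown because both hold the core to which ATF4 and C/EBP factors bind, and the genes went in opposite directions (RefSeq, GRCm38.p6, chr6:7693160-7693459 and chr1:191183284-191183583, both minus strand, printed as above). Capitals mark the match to TGATGNAA, which begins 23 bases before the Asns start on the gene's strand and 110 bases before the Atf3 start on the opposite strand.
Asns: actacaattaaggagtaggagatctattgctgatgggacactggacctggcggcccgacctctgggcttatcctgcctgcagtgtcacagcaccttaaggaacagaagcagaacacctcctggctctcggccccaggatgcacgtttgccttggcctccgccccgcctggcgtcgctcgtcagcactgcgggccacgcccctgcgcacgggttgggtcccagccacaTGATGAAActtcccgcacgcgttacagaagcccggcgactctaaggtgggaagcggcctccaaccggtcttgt
Atf3: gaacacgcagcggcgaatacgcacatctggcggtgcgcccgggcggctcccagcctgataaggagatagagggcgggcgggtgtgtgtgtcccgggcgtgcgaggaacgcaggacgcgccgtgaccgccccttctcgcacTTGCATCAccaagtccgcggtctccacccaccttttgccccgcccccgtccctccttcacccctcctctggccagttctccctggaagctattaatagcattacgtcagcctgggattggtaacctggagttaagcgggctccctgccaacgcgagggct
This core was in 4.06% of all windows and 2.2% of those of tested genes. It was in 9 of 29 matched ATF4 targets: 5 of 14 that fell, 1 of 2 that rose and 3 of 13 that were not called.

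Of 22 enzymes that use or make glutamine, 1 rose (4.55%), 5 fell (22.7%, against 12.5% of all genes) and 16 did not pass. Without replicate 3, 3 rose and 5 fell. The median was -0.08, and 0.01 at the highest, in a limma fit of log2 FPKM. Glul, glutamine synthetase, had 71.1, 72.4 and 78.5 FPKM in Control and 93.1, 93.9 and 74.1 in JHU083, where replicate 3 lay within the Control range (log2 0.14, adjusted p = 0.246; 0.24 and 0.00753 without it). Of 20 genes of the cytosolic aminoacyl-tRNA synthetase list, which charge tRNAs and include the mitochondrial Fars2 by its symbol, 11 fell and 0 rose (median -0.19); 13 fell without replicate 3 and 6 without Control replicate 2. Of 16 mitochondrial ones, 1 rose (6.25%, against 11.5% of all genes) and 0 fell (median 0.07). The rise was that of Hars2 (log2 0.27, adjusted p = 0.0454), and its call ended on leaving out any 1 of the 6 libraries (adjusted p = 0.063 to 0.14).

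**Figure D2:**
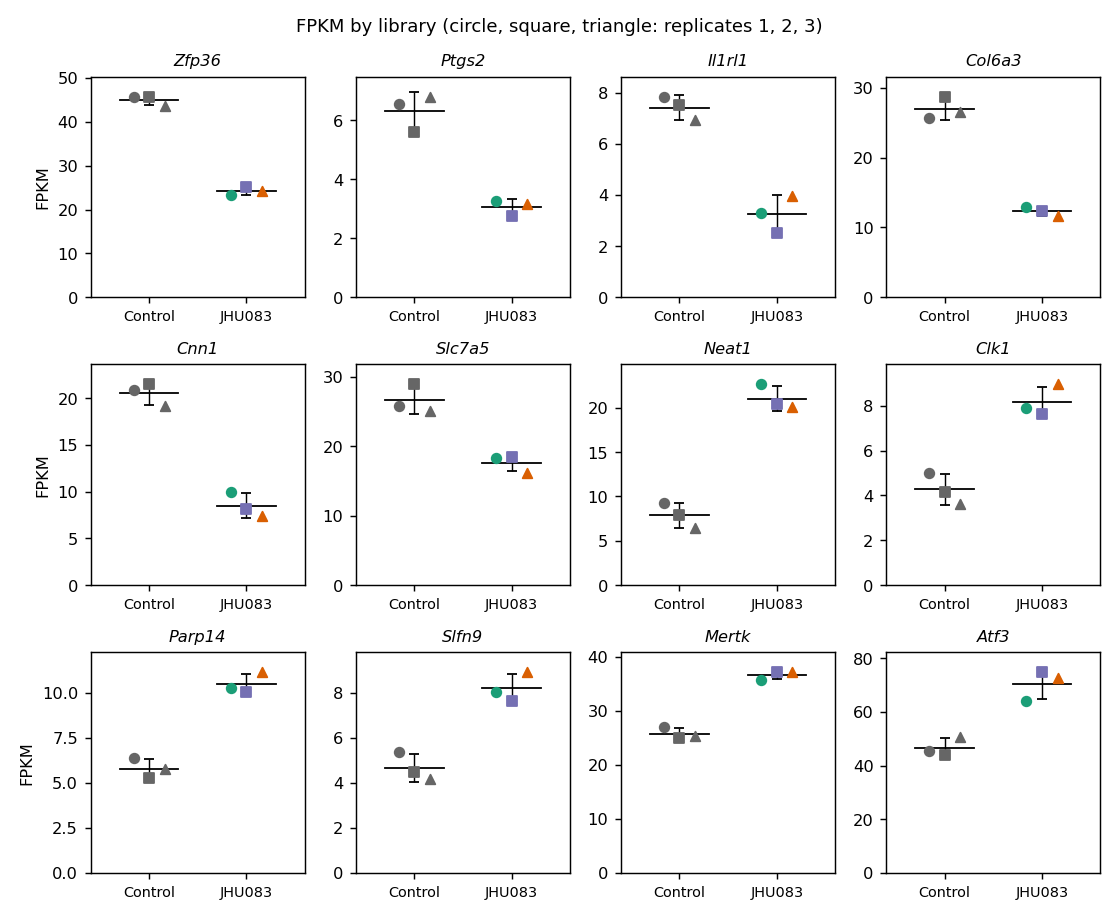
FPKM of 12 genes in the 3 Control (grey) and 3 JHU083 libraries (green, purple and orange for replicates 1 to 3). Lines and bars are the mean and SD, and each y axis starts at 0. In each of the 12 panels all JHU083 points, replicate 3 included, lie on the same side of all Control points. The genes were picked with their values known, some of them by a rule that requires no overlap. Over all tested genes, 43.7% had no overlap between the groups.

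Lipid synthesis was lower at several steps. Of 34 genes of sterol synthesis and uptake, 12 fell (35.3%, against 12.5% of all genes). The rises were 3 (8.82%, against 11.5%), and 19 did not pass (median -0.17). Without replicate 3, 13 fell and 6 rose, and without Control replicate 2, 8 fell. Fdps, which makes farnesyl diphosphate, had 20.2, 21.96 and 18.9 FPKM in Control and 13.4, 12.3 and 14.0 in JHU083, with no overlap (log2 -0.71, adjusted p = 0.000328). The 3 that rose act outside synthesis. Mylip, a ligase that removes the LDL receptor, had 8.92, 8.75 and 7.86 against 14.7, 15.2 and 12.9 FPKM (log2 0.65, adjusted p = 0.000723), Nr1h3 encodes the sterol receptor LXRα (log2 0.44, adjusted p = 0.0361), and Stard5 carries cholesterol (log2 0.19, adjusted p = 0.0364). The calls of Nr1h3 and Stard5 each ended without any of 4 libraries: Control replicates 1 and 2 and JHU083 replicate 2 for both, JHU083 replicate 1 for Nr1h3 and Control replicate 3 for Stard5 (adjusted p = 0.102 to 0.134 for Nr1h3 and 0.0723 to 0.129 for Stard5). The sterol regulatory element core TCACNCCAC was in 1.22% of windows, 1.04% of those of tested genes and 1 of 25 matched genes of this list.

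Of 22 genes of fatty acid synthesis, 12 fell, 1 rose and 9 were not called, at a median of -0.26 (13 and 1 without replicate 3, 8 falls without Control replicate 2). Fads2, which desaturates polyunsaturated fatty acids, had 15.4, 16.3 and 13.7 FPKM in Control and 10.7, 8.64 and 10.5 in JHU083 (log2 -0.70, adjusted p = 0.00187). Scd2, a stearoyl-CoA desaturase, had 60.5, 64.6 and 51.5 against 43.7, 39.0 and 43.5 FPKM (log2 -0.58, adjusted p = 0.00101). Neither overlapped. The early enzymes Acly and Acaca did not pass, at log2 values of -0.03 and -0.05. Of 25 glycolysis genes, 10 fell (40%, against 12.5% of all genes) and 2 rose (8%, against 11.5%). Without replicate 3, 11 fell and 2 rose, and without Control replicate 1, 0 rose. The rises were those of Hk3, a hexokinase, and Pfkfb3, which makes an activator of glycolysis; the call of Hk3 also ended without Control replicate 2 or JHU083 replicate 2 (adjusted p = 0.0595 and 0.0553), and that of Pfkfb3 without any 1 library other than JHU083 replicate 3 (0.077 to 0.143). Pgk1, an abundant glycolytic kinase, had 251, 268 and 260 against 223, 221 and 217 FPKM (log2 -0.33, adjusted p = 0.00153).

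Short transcripts of the ribosome and of mitochondria were lower by modest amounts. Of 83 cytosolic ribosomal protein genes, 68 fell, 0 rose and 15 did not pass (median -0.41, library medians -0.44, -0.52 and -0.26); 70 fell without replicate 3. With the length trend removed, 29 fell at a median of -0.19; the median length of these transcripts was 1094 bases, against 3120 for all genes tested. Rpl38, of the large subunit, had 87.4, 96.4 and 88.9 FPKM in Control and 45.8, 39.2 and 74.2 in JHU083, where replicate 3 was nearest to Control (log2 -0.87, adjusted p = 0.0079; -1.20 without it). Many processed pseudogenes resemble these genes, which makes the placing of their reads less certain. Of 37 genes of respiratory complex I, 26 fell and 0 rose (median -0.35), and 5 fell with length removed (median -0.20); 29 fell without replicate 3 and 14 without Control replicate 2. Of 40 genes of complexes II to V, 27 fell and 0 rose (median -0.32), with 11 and 0 when length was removed, while without replicate 3, 30 fell and 1 rose, and without Control replicate 2, 17 fell. Ndufc2, a subunit of complex I, had 45.1, 52.1 and 51.8 FPKM against 23.5, 25.6 and 43.6 (log2 -0.78, adjusted p = 0.0145), and its call ended without Control replicate 2 or 3. Of 37 proteasome genes, 17 fell and 1 rose, and 7 and 1 with length removed (median -0.17, then -0.05); 20 fell and 0 rose without replicate 3, and 10 fell without Control replicate 2. Of 13 genes of the mitochondrial genome 1 fell (7.69%, against 12.5% of all genes). Without replicate 3, 10 of these genes fell. Their library medians were -0.19, -0.32 and 0.13, so replicate 3 lay on the other side of Control, and with length removed the median was 0.07.

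Nuclear RNAs and some splicing factors were among the larger rises. Of 4 long RNAs that stay in the nucleus, 3 rose (median 1.03), also without replicate 3. Neat1, the scaffold of paraspeckles (chromosome 19, 5824708 to 5845478), had 9.25, 7.90 and 6.43 FPKM in Control and 22.6, 20.5 and 20.1 in JHU083. The groups were far apart, and the fitted difference was 2.51-fold (log2 1.33, SE 0.13, adjusted p = 0.000339; 1.14 with length removed). Malat1, a nuclear speckle RNA, rose by 1.18 (adjusted p = 0.00121) and Xist by 0.88 (adjusted p = 0.0027). Clk1, a kinase of splicing factors, had 5.02, 4.14 and 3.63 against 7.90, 7.63 and 8.95 FPKM (1.79-fold higher, log2 0.84, adjusted p = 0.000932). Rsrp1, an arginine- and serine-rich protein, had 30.5, 27.8 and 23.9 against 72.2, 68.7 and 63.0 (log2 1.22, adjusted p = 0.000106). Of 40 splicing regulators, 13 rose, 1 fell and 26 did not pass (median 0.15); without replicate 3, 15 rose and 4 fell, and without Control replicate 2, 8 rose. Reads left in introns would also count toward these genes if counting took them in, which is not given in the sources used here.

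Of 36 large chromatin regulators, 15 rose and 0 fell (median 0.20). Without replicate 3, 14 rose and 0 fell, and without Control replicate 3, 8 rose. With length removed 6 rose and 0 fell (median 0.06), and with length and GC content removed 8 rose and 2 fell (median 0.06). Their median transcript length was 8950 bases. Atrx, a chromatin remodeller, had 3.67, 3.13 and 2.69 FPKM in Control and 4.81, 4.89 and 5.70 in JHU083 (log2 0.60, adjusted p = 0.00304; 0.33 with length and GC content removed). Ogt, which attaches the amino sugar GlcNAc to nuclear proteins and whose donor is built with glutamine, had 13.2, 11.5 and 10.8 against 21.2, 20.5 and 23.96 FPKM (log2 0.79, adjusted p = 0.00101). Id1, an inhibitor of differentiation factors and a short gene, had 10.8, 9.13 and 10.5 against 18.0, 20.7 and 16.7 (log2 0.77, adjusted p = 0.000825; 1.04 with length and GC content removed).

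Of 48 DNA replication genes, 11 rose (22.9%, against 11.5% of all genes), 0 fell and 37 did not pass (median 0.11; 0.19 with length removed); without replicate 3, 14 rose and 0 fell. Pcna, the clamp of DNA polymerases, had 90.7, 95.5 and 89.3 FPKM in Control and 122, 128 and 115 in JHU083, with no overlap (log2 0.31, adjusted p = 0.00291). Of 51 mitosis genes, 10 rose (19.6%, against 11.5% of all genes) and 1 fell (median 0.14), and 7 and 2 without replicate 3. With length and GC content removed, 6 rose and 0 fell, at a median of 0.09. Mki67, the proliferation marker, had 17.0, 15.1 and 11.7 against 22.1, 20.7 and 25.7 FPKM (log2 0.55, adjusted p = 0.0129), while Plk1, a mitotic kinase, was at 19.8, 18.1 and 18.9 against 17.4, 16.8 and 17.0 (log2 -0.24, adjusted p = 0.0241; its call ended without any of Control replicates 1 and 3 or JHU083 replicate 2). Without Control replicate 3, which had the lowest Mki67, 4 replication genes and 1 mitosis gene rose. Of 25 p53 targets, 8 fell (32%, against 12.5% of all genes) and 0 rose, and 9 and 1 without replicate 3. Cdkn1a, the cell cycle inhibitor p21, had 61.2, 67.3 and 65.01 FPKM against 58.1, 56.2 and 52.8 (log2 -0.31, adjusted p = 0.00291).

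**Figure D3:**
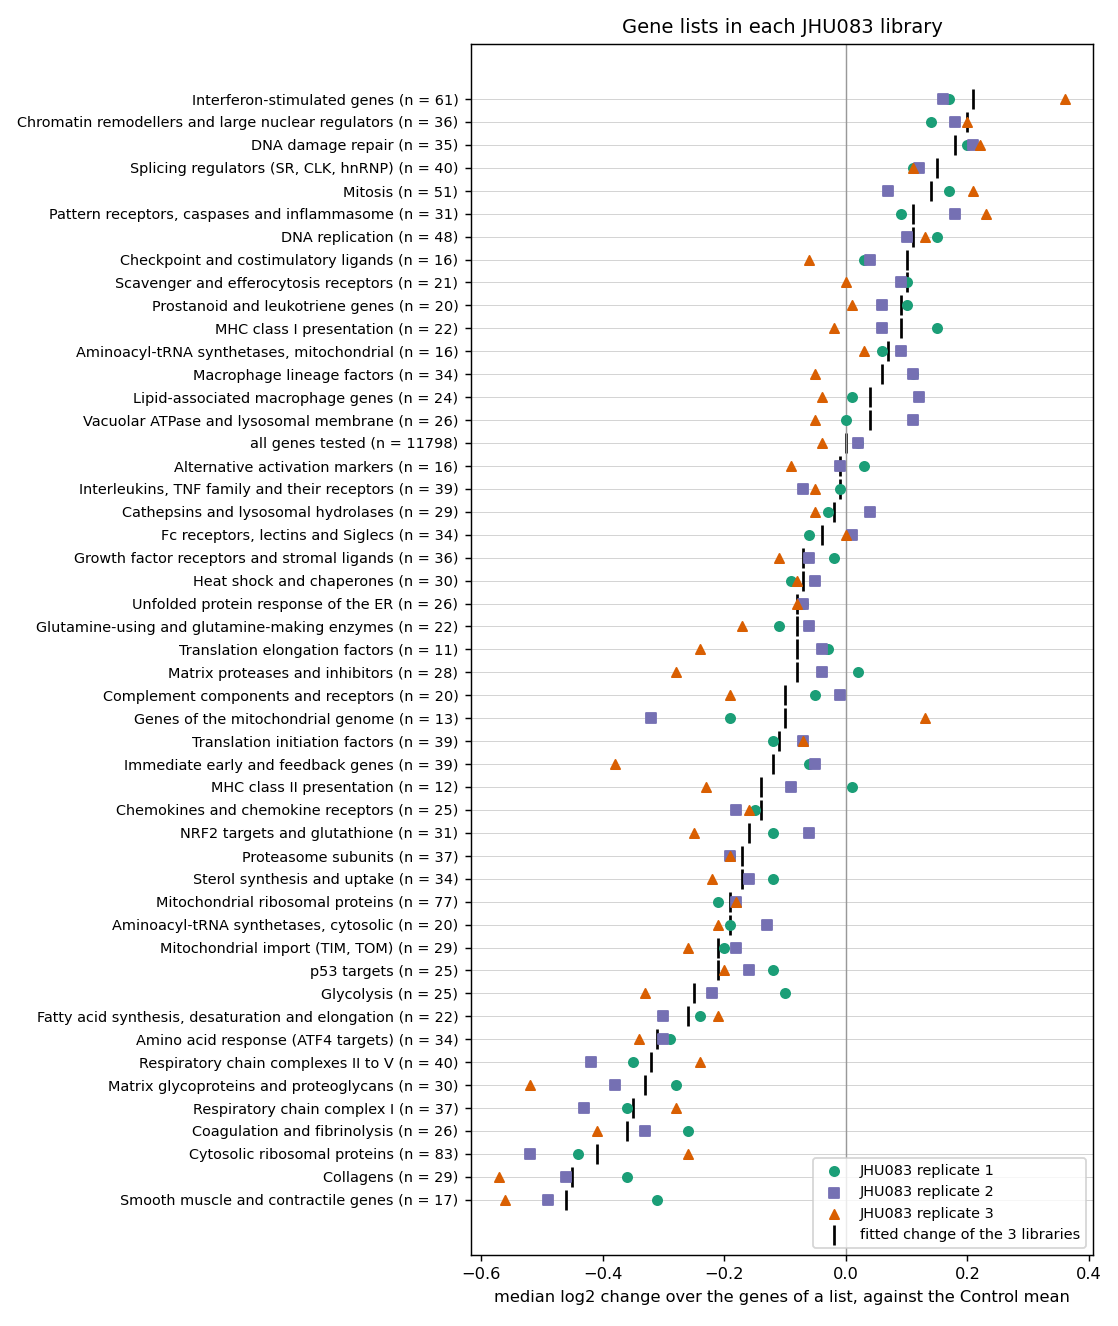
Median log2 change against the Control mean for the genes of each list with at least 10 tested members, in JHU083 replicate 1 (circle), 2 (square) and 3 (triangle); black ticks are the fitted medians. Smooth muscle, collagen, ribosomal, respiratory and ATF4 target lists lie left of 0 in all 3 libraries, interferon-stimulated genes lie right of 0 in all 3, and genes of the mitochondrial genome are split, with replicate 3 at 0.13 and the others at -0.32 and -0.19.

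Genes of connective tissue cells were mostly lower. In bulk RNA, fewer cells of a type and less RNA per cell cannot be told apart. Of 29 collagens and the enzymes that modify them, 23 fell, 0 rose and 6 were not called. The median was -0.45, and the library medians were -0.36, -0.46 and -0.57. The falls were 24 without replicate 3, 19 at the fewest (without Control replicate 2) and 24 with length removed. Col6a3, a chain of the filament-forming collagen VI (chromosome 1, 90765923 to 90843971), had 25.6, 28.7 and 26.6 FPKM in Control and 12.96, 12.3 and 11.7 in JHU083. All treated libraries lay well below all Controls (2.33-fold lower, log2 -1.22, SE 0.07, adjusted p = 7.9e-06). Col3a1, of fibrillar collagen III, had 57.0, 71.1 and 58.9 against 36.3, 31.2 and 33.9 FPKM (log2 -0.98, adjusted p = 0.000153).

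Of 30 matrix glycoproteins and proteoglycans, 18 fell and 1 rose (median -0.33), and 17 and 2 without replicate 3. Thbs2, thrombospondin 2, had 63.0, 64.8 and 60.2 FPKM in Control and 40.9, 41.0 and 39.0 in JHU083, with tight replicates (log2 -0.73, SE 0.04, adjusted p = 1.36e-05). Tnc, the matrix protein tenascin C, had 73.7, 74.2 and 69.1 against 42.8, 38.8 and 37.1 (log2 -0.96, adjusted p = 0.000149). The rise was that of Prelp, which links matrix to cells (log2 0.52, adjusted p = 0.0147), and its call ended without Control replicate 1 or 3. Of 17 smooth muscle and contractile genes, 12 fell and 0 rose (median -0.46), and 13 and 0 without replicate 3. Cnn1, calponin 1, had 20.9, 21.5 and 19.2 FPKM against 9.96, 8.12 and 7.44 (2.57-fold lower, log2 -1.36, SE 0.10, adjusted p = 6.87e-05), and Actg2, a smooth muscle actin, 108, 114 and 99.9 against 51.7, 51.8 and 42.8 (log2 -1.23, adjusted p = 0.000149). The sum over 12 fibroblast and marrow stroma markers was 13273 to 14215 CPM in Control and 8918 to 10085 in JHU083, and 5 of the 9 tested fell; Lepr, which marks marrow stroma, was under 1 FPKM. Col1a1, a chain of fibrillar collagen I and the most abundant of the 12, had 875, 890 and 832 FPKM in Control and 595, 548 and 495 in JHU083. Pdgfra, Prrx1, Dcn and Cxcl12 were not called and their groups overlapped: Pdgfra, a receptor that marks fibroblasts, had 4.32, 4.58 and 4.36 FPKM against 4.87, 4.07 and 4.51. The part of stromal cell number in these falls was not tested. Some stromal genes went the other way: Grem1, a BMP antagonist, had 31.3, 25.8 and 30.1 FPKM against 44.2, 40.7 and 44.3 (log2 0.47, adjusted p = 0.00182), and Fgf7, a growth factor of fibroblasts, rose by 0.27 (adjusted p = 0.00807).

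The sum of liver transcripts was lower in every JHU083 library and unequal among them. Of 25 hepatocyte markers, 20 fell and 0 rose, and their sum was 2885 to 3033 CPM in Control against 1685, 1396 and 1994 in JHU083 replicates 1 to 3. Apoa2, Apoh, Serpina3k, Trf and Mup20 were not called. Mup20 had 5.59, 6.22 and 7.08 FPKM in Control and 13.96, 5.74 and 3.81 in JHU083. In JHU083 replicate 1, Mup20, Apoa2 and Apoh were above every Control library. Alb, serum albumin, had 249, 246 and 226 FPKM in Control and 53.6, 24.7 and 124 in JHU083, the highest in replicate 3 (log2 -1.92, SE 0.51, adjusted p = 0.0213; -2.72 without replicate 3); its call ended without Control replicate 2 or 3 or JHU083 replicate 1. Coagulation genes were lower where they were called. Of 26, 14 fell and 0 rose (median -0.36; 14 without JHU083 replicate 3, 9 without Control replicate 3), among them Fgb, a chain of fibrinogen, at 29.7, 29.1 and 26.5 FPKM against 12.6, 6.13 and 16.04 (log2 -1.39, adjusted p = 0.00983). C3, the central complement component, which liver and macrophages both make, had 44.3, 40.8 and 40.01 against 17.9, 12.9 and 27.5 FPKM (log2 -1.20, adjusted p = 0.00386). The part of liver RNA in these falls was not tested.

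Some genes of other marrow cells fell and others did not, and the defining neutrophil marker was near 0. Ngp, a neutrophil granule protein, had 13.5, 14.2 and 14.1 FPKM in Control and 3.88, 2.84 and 3.98 in JHU083 (log2 -2.06, SE 0.18, adjusted p = 0.000152), and S100a8 had 7.17, 8.07 and 8.11 against 1.41, 1.69 and 2.80 (log2 -2.07, adjusted p = 0.00295). Ly6g, which defines neutrophils, was between 0 and 0.07 FPKM in the 6 libraries. The sum over 12 neutrophil markers was 148 to 151 CPM in Control and 115 to 124 in JHU083, and 3 of the 5 tested fell. The remaining pair were not called: Mmp8, a neutrophil collagenase, had 9.69, 10.1 and 10.9 FPKM against 10.88, 10.95 and 12.5, and Csf3r, the G-CSF receptor, 18.5, 16.6 and 16.9 against 19.5, 21.7 and 18.1. Ccr3, an eosinophil chemokine receptor, rose from 1.44, 1.81 and 1.63 to 2.64, 2.95 and 2.37 FPKM (log2 0.61, adjusted p = 0.00689), and the sum of 5 eosinophil markers was 11.1 to 12.6 CPM in Control and 15.5 to 17.6 in JHU083. The defining eosinophil genes Epx and Il5ra were at most at 0.04 and 0.02 FPKM. Mcpt8, a basophil protease, had 10.6, 8.30 and 9.34 FPKM against 4.11, 3.21 and 3.63. Igkc, an antibody light chain, had 7.61, 7.42 and 13.7 against 2.74, 3.44 and 2.38 (log2 -1.83, adjusted p = 0.00135). Gzmd, a granzyme, had 15.6, 14.3 and 15.6 against 4.86, 4.54 and 5.51 (log2 -1.70, adjusted p = 0.00847). The groups did not overlap for Ngp, S100a8, Mcpt8, Igkc or Gzmd. Over all tested genes, 12.4% were lower without overlap. All of these but Mcpt8 were named by a rule that requires no overlap, so this is a description. The part of other cell types was not tested.

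Grouped by the stem of their symbols, 144 families had at least 10 tested genes. Zinc finger genes named Zfp were the largest, with 59 of 229 higher and 4 lower. Of 34 Trim ubiquitin ligases, 13 rose and 1 fell; of 11 Ifi genes, 6 rose and 1 fell (8 and 0 with length and GC content removed); and of 22 Kif motor proteins, 8 rose and 0 fell (4 and 1). On the lower side were 15 of 19 Col genes (1 higher), 37 of 47 Rpl, 29 of 40 Rps (1 higher), 9 of 10 Ndufb and 13 of 17 Atp5 genes. Stems come from symbols alone, so a family can take in unrelated genes. The lists of collagens and of cytosolic ribosomal proteins had 0 rises. With length and GC content removed, 17 Col genes fell but 15 Rpl, 12 Rps, 3 Ndufb and 6 Atp5 genes did. These shares stand against 11.5% higher and 12.5% lower over all genes tested.

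Where replicate 3 differed from replicates 1 and 2, it did so in part along the GC content of transcripts. Across 11791 genes, the rho of a library's difference from the Control mean with GC content was -0.545 in replicate 3, -0.061 and -0.101 in replicates 1 and 2, and -0.234, -0.007 and 0.241 in the Control libraries (a description). In the 665 genes under 40% GC, the median of replicate 3 was 0.31 above Control on the log2 scale, against 0.08 and 0.10. In the 387 genes of 60 to 65% GC it was -0.29, against 0.08 and 0.05. Of the 43 genes of 65% GC or more, 22 were at least 1.5-fold below both other JHU083 libraries in replicate 3 and 0 above. Removing length and GC trends from every library gave 1303 genes higher and 1237 lower, and the same without replicate 3 gave 1767 and 1542. Whether the GC trend arose in the library or in the cells was not tested.

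**Figure D4:**
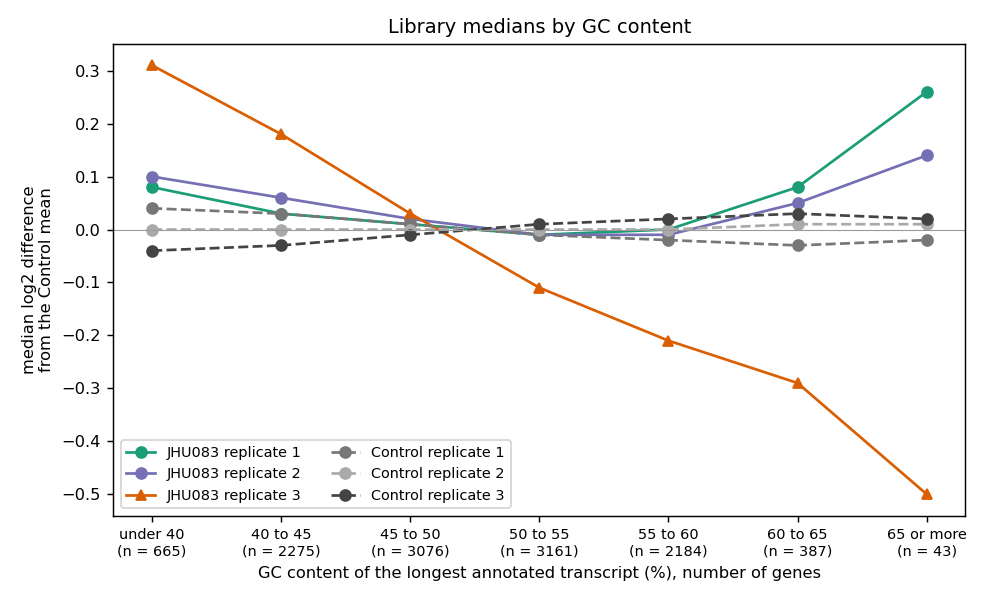
Median log2 difference from the Control mean (y axis) by GC content of the transcript (x axis, percent) for the 3 JHU083 libraries (solid) and 3 Control libraries (dashed). JHU083 replicate 3 (triangles) falls from 0.31 to -0.50 across the bins, and the other 5 libraries differ from 0 by at most 0.1 except for replicates 1 and 2 among the 43 genes of the highest GC content (0.26 and 0.14).

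Some genes differed far beyond that trend. They were picked for this difference, so their values are a description. Cebpb, a transcription factor gene with a short GC-rich transcript, had 3.69, 3.63 and 4.04 FPKM in Control, 38.8 and 36.3 in JHU083 replicates 1 and 2, and 1.47 in replicate 3. Its call (log2 2.65, adjusted p = 0.0276) rests on replicates 1 and 2, and ended on leaving out any library but replicate 3 (adjusted p = 0.0698 to 0.0928; 6.25e-10 without replicate 3). Jund, an AP-1 subunit, had 41.4, 44.2 and 45.4 in Control and 69.7, 68.9 and 22.9 in JHU083, and Hnrnpa0, an RNA-binding protein, 28.6, 29.6 and 26.6 against 47.0, 46.7 and 22.2. In these 3 genes replicate 3 lay below every Control and the others above. Bloc1s4, of lysosome-related organelles, had 3.62, 4.31 and 3.21 against 9.74, 7.95 and 3.02. Scand1 was level in the first pair of JHU083 libraries (14.0 and 13.5, against 14.8 to 15.4 in Control) and at 2.97 in replicate 3.

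Other genes had the Control level in replicate 3 alone. Slfn4, a Schlafen gene of myeloid cells, had 9.01, 9.56 and 7.99 FPKM in Control, 0.09 and 0.11 in JHU083 replicates 1 and 2, and 8.48 in replicate 3. Acod1, which makes the antimicrobial metabolite itaconate, had 6.49, 7.23 and 6.19, then 0.48 and 0.41, then 6.35. Nnt, the mitochondrial transhydrogenase, had 6.83, 6.20 and 7.79, then 2.97 and 2.82, then 7.07. None of the 3 was called with all libraries (adjusted p = 0.291, 0.174 and 0.0861), and without replicate 3 their log2 changes were -6.53, -3.99 and -1.36. The sum of photoreceptor markers had the same pattern (37.8 to 46.1 CPM in Control, 5.74 and 5.50 in JHU083 replicates 1 and 2, and 42.8 in replicate 3). The sum of heart markers was 361 to 414 CPM in Control and 293, 9.07 and 444 in JHU083. The part of such RNA in these genes was not tested. The values of Cebpb, Slfn4, Acod1 and Nnt thus depend on which JHU083 libraries are used. Zfp36, Col6a3, Neat1 and the other genes of the 12-panel plot had all 3 libraries on the same side. Those 12 genes were picked with their values known, and some by a rule that requires no overlap, so this is a description. Over all tested genes, 43.7% had no overlap between the groups.

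**Figure D5:**
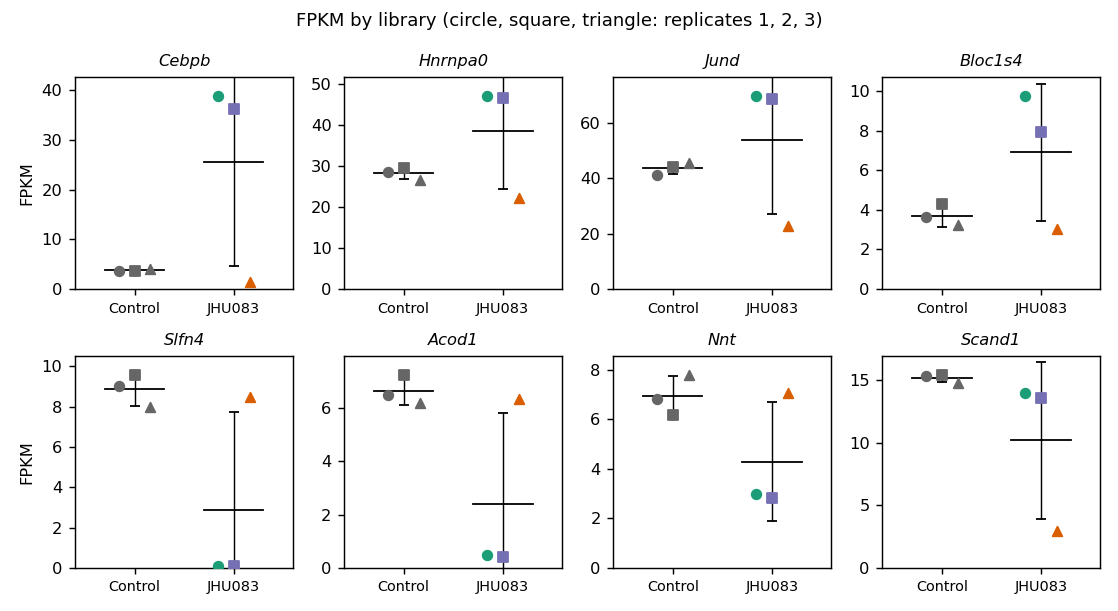
FPKM of 8 genes in the 3 Control (grey) and 3 JHU083 libraries (green, purple and orange for replicates 1 to 3), chosen because replicate 3 differs; lines and bars are the mean and SD, and each y axis starts at 0. The orange triangle lies below the other JHU083 points for Cebpb, Hnrnpa0, Jund, Bloc1s4 and Scand1, and at the Control level, above them, for Slfn4, Acod1 and Nnt.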

How the data were processed

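RNA was measured in 9 libraries, 3 each of Control, JHU083 and WGFT17 macrophages. Per the submitters' processing notes, the tools were HISAT2 2.2.1, StringTie 2.1.6, cutadapt 1.9, edgeR and DESeq2 and the build mm9, with roles and settings not given in the sources used here. The deposited FPKM are the authors' fragments scaled to transcript length and depth. The deposited expected counts (estimated counts) are whole numbers, so no rounding was needed; how many counts stand for a read pair is not given in the sources used here. The build was checked against GENCODE M21: 26088 of 28926 matched identifiers (90.2%) had the same GRCm38 coordinates.

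Genes at or above a mean of 1 FPKM were tested with edgeR 4.0.16 (R 4.3.3) quasi-likelihood on the counts, TMM factors, all 9 libraries in 1 fit, Benjamini-Hochberg adjustment over all tested genes and a threshold of 0.05. The standard error of a log2 change is its size divided by the root of F. On simulated data with 200 changed of 11798 genes for JHU083 against Control, the test recovered 69% at 1.5-fold and 100% at 2-fold, with 13 false calls. The simulation gave every gene the same spread and had no length or GC trend and no library that stood apart. Its recovery and false calls therefore do not describe the real libraries. Means, SDs and values per library are deposited FPKM. Length and GC content are those of the longest GENCODE transcript.

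The members and gene lists were chosen with earlier results of these data known, so no list is independent support. The rule for named genes took the 15 largest rises and falls among called genes that reached 5 FPKM in either group, with no overlap and no provisional symbol; up to 4 called members of each list with the largest change in its leading direction and up to 2 against it; a fixed set of glutamine, stress and macrophage genes; and the 10 genes in each direction farthest apart in JHU083 replicate 3. Another 31 genes were added from the lists and markers after their values were seen. Some genes are not reported here. Promoters came from RefSeq (GRCm38.p6), with 6 motifs searched on both strands. Alternatives were limma 3.58.1 on log2 FPKM, DESeq2 1.42.0, other scalings, filters, a replicate block, count scale, trend removal and leaving out each library.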

Additional observations from a re-analysis of the deposited data

How the results depend on the processing

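The counts of 2831 calls, 1351 higher and 1480 lower, were recomputed under 24 alternatives, 3 of them added after seeing the data (removal of length and GC trends, with and without JHU083 replicate 3). With any 1 library left out, the calls were 1534 to 3731, the higher ones 673 to 1855 and the lower ones 837 to 1876; the fewest calls came without Control replicate 2 and the most without JHU083 replicate 3. Against a minimum fold of 1.2, 362 genes passed, 111 higher and 251 lower. No minimum on FPKM gave 867 higher and a fit of JHU083 and Control alone 884. In limma fits of log2 FPKM with pseudocounts of 1, 0.1 and 0.01, 2524, 2485 and 2481 were higher, and 951 and 930 lower with the last pair; the median of all genes was then 0.08 to 0.09 above 0. The cause of these differences was not tested, beyond the fewer samples or stricter threshold in the setting itself. DESeq2 gave 3373 calls.

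The libraries showed no sign of being paired by replicate number (correlations of deviations -0.002, 0.059 and 0.007). With 3 libraries per group these values cannot exclude pairing, and the labels do not say. With the replicate number as a block, 2330 genes were called, 1062 higher and 1268 lower, of which 2270 were also called without the block.

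Of the 260 named genes that were called, 82 kept call and direction under every alternative that could be fitted. Among named genes, 5 reversed. With length removed, Atp6v1f was at 0.06 and Cd68 at 0.02, and with length and GC content removed at 0.12 and 0.07. Without JHU083 replicate 3, Atp6v1f was at 0.15 (length and GC) and 0.11 (length), Cd68 at 0.04 and 0.00, and Hmox1 at 0.21 and 0.18. Chordc1 was at -0.05 with length and GC content removed and at 0.00 without replicate 3 as well, just below 0. Zfp771 was at -0.27 to 0.35 with 1 library left out, 0.35 being without JHU083 replicate 3, and at 0.49 with length removed too. Of 49 lists, 35 kept the sign of their median in all 24 alternatives. The other 14 had medians between -0.10 and 0.04. In simulated data with the same spread for every gene, 69% of 1.5-fold changes were recovered, so smaller changes can be missed. Real genes and libraries differ in spread, so that share does not carry over to them.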
